A study of Homo sapiens with 12 samples.

Results

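Microexons are internal exons short enough to add only a few residues to a protein. The exons described here are the cassette exons of 3 to 27 nt in the authors' splicing table that had at least 20 inclusion and exclusion reads in each of 12 RNA-seq libraries. This rule used length and read number but no splicing level, and 2003 of the 721551 events of the table met it. They lie in 1656 genes, of which 1383 hold 1 of them and 273 hold more, with 7 in PTPRS and 6 in COL18A1. The table lists 4059 cassette exons of 3 to 27 nt at any read number, so the read rule set the number kept.

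The libraries hold poly(A) RNA of HEK293T, a transformed line from human embryonic kidney, collected 48 h after transfection of 200 ng of an effector vector with 200 ng of a guide RNA vector. All effectors carry dCasRx, the catalytically inactive form of an RNA-guided RNA-binding nuclease. dCasRx-RBM25 is its fusion to a splicing factor, RBM25, and was used with a guide to MAPT exon 10 meant to activate it (RBM25_MAPT), with a guide to CD46 exon 13 meant to repress it (RBM25_CD46), or with a nontargeting guide (RBM25_NT). RBFOX1N-dCasRx-C joins dCasRx to parts of the splicing factor RBFOX1 and was used with the MAPT guide (RBFOX1N_MAPT) or the nontargeting guide (RBFOX1N_NT). dCasRx alone was used with the nontargeting guide only (dCasRx_NT). There were 2 biological replicates, in the design text's words, for each of these 6 groups, so there are 6 RBM25, 4 RBFOX1N and 2 dCasRx libraries when guides are pooled. No group was left untransfected, so changes shared by all effectors cannot be seen.

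Microexons are best known from neurons, where the activator SRRM4 and its relative SRRM3 promote their inclusion from a short stretch just upstream of the exon, RBFOX proteins bind near many of them, and PTBP1 represses many in other cells. Their hosts are often genes of the cytoskeleton, of vesicle traffic and of synapses, and a length that is a multiple of 3 lets an exon be added without shifting the reading frame. RBM25 is a splicing factor associated with the U1 small nuclear ribonucleoprotein, which recognises the start of introns.

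The sequences below show the exons on which the effector comparisons turn, together with a pair of paralogous exons that differ in use. They were read from the GENCODE 29 transcripts (GRCh38, the same build as hg38). Capitals mark the microexon, and the lower-case bases are the 9 bases of the neighbouring exons on each side in the spliced transcript, 5′ to 3′ on the coding strand.
CYTH1: tgaaactcgGAGgtggcaggg
CYTH2: tgaagctggGAGggggccggg
AP2M1: aagagtcagCATCAGacaaaagaa
MAP4K4: aagcctgctGGCGAAGTGgatctgacc
PTPRS: tgcgatcagAAACCTTTGaaagcactc
SUPT5H: tagagaaagAAGAGATTGAAGcctccaata
DNM2: cccaatcagGGGGAGATCCTGgtgatccgc
FLNA: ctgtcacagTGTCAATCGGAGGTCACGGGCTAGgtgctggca
MAX: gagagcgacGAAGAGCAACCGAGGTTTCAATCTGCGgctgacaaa
CLASP1: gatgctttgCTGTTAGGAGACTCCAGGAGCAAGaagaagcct
CLASP2: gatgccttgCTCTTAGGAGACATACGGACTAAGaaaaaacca

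All 11 of these exons have a length that is a multiple of 3. On hg38 they lie at chr17:78696007-78696009 on the minus strand (CYTH1), chr19:48477717-48477719 on the plus strand (CYTH2), chr3:184180645-184180650 on the plus strand (AP2M1) and chr2:101868029-101868037 on the plus strand (MAP4K4). The others lie at chr19:5262964-5262972, minus (PTPRS), chr19:39458294-39458305, plus (SUPT5H), chr19:10808569-10808580, plus (DNM2), chrX:154357251-154357274, minus (FLNA), and chr14:65101546-65101572, minus (MAX). The 24-nt exons are at chr2:121409024-121409047, minus (CLASP1), and chr3:33574473-33574496, minus (CLASP2). GENCODE 29 places each of them inside a coding sequence. The cytohesin paralogs carry the same 3-nt exon, GAG, and 17 of the 21 bases shown are identical (81.0%). In the CLASP pair 17 of the 24 exon bases are identical, yet the mean inclusion over all libraries was 43.6% for CLASP1 and 0.315% for CLASP2.

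Inclusion is given as percent spliced in (PSI), the percent of an exon's reads that include it. Averaged over the 12 libraries, most of the microexons were hardly used: 1332 of 2003 (66.5%) were below 1% and 184 (9.19%) were between 1% and 10%. The alternative range of 10% to 90% held 187 (9.34%), the range of 90% to 99% held 128 (6.39%), and 172 (8.59%) were above 99%. Cassette exons over 27 nt under the same read rule were spread the other way, with 12.1% of 114125 below 1% and 43.7% above 99%, while 10.5% were in the alternative range. The table therefore holds many candidate microexons whose reads in this line were nearly all skipping reads. Of the 1332 exons below 1%, 913 have no exon at that place in GENCODE 29, and 1001 were quantified by the table's separate microexon step.

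The share of exons that keep the frame differed between the use classes. A length that is a multiple of 3 was found in 1168 of 2003 microexons (58.3%), compared with 38% of the longer cassette exons, where lengths spread evenly would give 1 in 3. It was found in 61.5% of the microexons below 1%, 57.6% of those from 1% to 10% and 59.4% of those from 10% to 90%. Among microexons from 90% to 99% the share was 39.8%, and above 99% it was 47.1%. Restricted to the 604 microexons that GENCODE 29 places in a coding sequence, the shares over the same 5 classes, from least to most used, were 77.8%, 82.3%, 71.8%, 36.7% and 47.4%. Longer exons varied much less across the classes, between 36.0% and 39.6%. These shares are descriptions of annotated and candidate exons, and exons of one gene are not independent of each other.

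Use was higher in the longer length classes, but length goes with the quantification step and the annotation. The separate microexon step gave 825 of the 852 exons of 3 to 9 nt, 294 of 407 of 10 to 15 nt and 0 of 744 of 16 to 27 nt. In the same order, 626, 203 and 145 have no exon at that place in GENCODE 29. The part of length itself cannot be told apart from these. Of the 852 exons of 3 to 9 nt, 766 (89.9%) were below 1% and 32 were in the alternative range. For 10 to 15 nt, 301 of 407 were below 1% and 37 were alternative, and for 16 to 27 nt, 265 of 744 (35.6%) were below 1% and 118 were alternative. The shortest possible members, of 3 nt, numbered 378, with 359 below 1%, 6 alternative and 3 above 90%. Only 16 of these 378 are coding exons with the same ends in GENCODE 29. The 15 whose sequences were read are AAG, CAG and GAG (3 exons each), CTT (2 exons), and AGA, CAT, TCT and TTT (1 exon each). GC content of the exons with annotated sequence lay between 45% and 48.1% over the 5 use classes, and purine content between 55.5% and 58.8%, with no ordered trend. At the edge of the rule, the median PSI varied without order from length to length, at 78.5% for 26 nt, 21.8% for 27 nt, 92.6% for 28 nt and 16.5% for 29 nt (67, 137, 84 and 82 exons), the last 2 outside the rule. The 129 exons with 20 to 24 reads in their shallowest library had a median of 0.554%, and the 127 with 15 to 19 reads, left out, 0.508%.

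The gene table, the only other measure, gave total counts of 32487927 to 53985468 per library; the dCasRx libraries, at 32487927 and 34499904, were among the 3 shallowest. The line markers were present throughout (VIM 621 to 835 CPM, NEFM 127 to 177 CPM, KRT18 53.8 to 62.5 CPM), and markers of blood and heart muscle were near 0 (PTPRC 0 to 2 counts, CD3E 0 to 5, MYH7 0 to 4). RBM25 reads were 42323 to 59147 CPM in RBM25 libraries, which include the effector, 197 to 219 CPM in RBFOX1N libraries, and 204 and 352 CPM in replicates 1 and 2 of dCasRx_NT. Gene counts do not tell effector reads from endogenous RBM25 reads and cannot show what the higher value in replicate 2 consists of. RBFOX1 had 0 to 6 counts in each of the 12 libraries, so the gene count does not check the RBFOX1N label. Replicates were closest in RBM25_CD46 and RBFOX1N_NT by gene counts, and no pair agreed within sampling noise. They lay furthest apart in RBM25_MAPT (chi-square per gene 36.3), followed by dCasRx_NT (21.7). In PSI, the 2 dCasRx libraries differed by 10 points or more in 62 of 453 tested microexons (13.7%), against 33 to 45 (7.28% to 9.93%) in the other groups. Counts of calls against dCasRx are given without each of its libraries, and the values of both are given for the exons described in detail. In bulk RNA, fewer cells carrying an effector and a smaller change in each cell cannot be told apart.

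Differences were tested on the inclusion and exclusion reads of 453 microexons in 427 genes that also had at least 24 reads of their less used form. Of these, 255 (56.3%) have a length that is a multiple of 3. An exon was called where the adjusted p of a two-sided quasi-likelihood F test of a quasi-binomial model, adjusted by Benjamini-Hochberg over all 100377 tested events, was under 0.05 and mean PSI differed by at least 10 points. In the effector comparisons the guides were pooled, although dCasRx had only the nontargeting guide and the CD46 guide was used only with RBM25. All 3 comparisons together called 49 microexons in 49 genes, 33 of which (67.3%) have a length that is a multiple of 3. By place, 28 are coding exons of GENCODE 29, 1 is in a UTR, 17 overlap annotated exons with other ends, and 3 have no annotated exon. Calls fell in 7 of 78 tested exons of 3 to 9 nt, 20 of 80 of 10 to 15 nt and 22 of 295 of 16 to 27 nt.

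With RBM25, 11 microexons differed from dCasRx, 7 higher and 4 lower, which is 2.43% of those tested beside 0.993% of all events (0.419% higher and 0.574% lower) and 1.44% of longer cassette exons. With RBFOX1N, 23 differed from dCasRx, 18 higher and 5 lower, or 5.08% beside 1.53% of all events (0.768% higher and 0.765% lower) and 1.96% of longer cassette exons. RBM25 and RBFOX1N differed from each other in 37, 15 higher and 22 lower with RBM25, or 8.17% beside 2.79% of all events (1.26% higher and 1.53% lower) and 3.39% of longer cassette exons. Lengths that are multiples of 3 made up 5 of 11, 15 of 23 and 29 of 37 of these calls. A call needs a difference of 10 points, and the tested sets differ in how many exons are in the alternative range. Mean PSI was 10% to 90% in 187 of the 453 tested microexons. Among longer cassette exons 48370 were tested, and 11958 under the read rule were in that range. Rates at matched PSI were not compared, so the shares called do not show that microexons responded more often than other events. The median difference over all tested microexons was 0.305, 0.673 and -0.119 points in the 3 comparisons, and over longer cassette exons -0.180, -0.0784 and -0.0890 points. The first 2 comparisons share the 2 dCasRx libraries. Without dCasRx_NT replicate 1 they gave 8 and 17 calls, and without replicate 2 they gave 6 and 11.

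The shortest called exons are the 3-nt exons of CYTH1, CYTH2 and CLASP2. CYTH1 and CYTH2 are cytohesins, exchange factors that load GTP onto ARF GTPases, and the exon adds a glycine to the lipid-binding pleckstrin homology domain, which changes the phosphoinositide it prefers. In CYTH1, PSI was lowest 71.3%, median 73.5% and highest 82.8% in RBM25 libraries, 45.5%, 50.1%, 50.1% and 47.5% in RBFOX1N libraries, and 76.2% and 77.7% in dCasRx libraries. The RBFOX1N libraries lay below all others without overlap, and RBM25 libraries overlapped the dCasRx range. Inclusion of CYTH1 fell with RBFOX1N by 28.6 points relative to dCasRx (SE 1.33, adjusted p 0.000357) and was 26.8 points higher with RBM25 than with RBFOX1N (SE 2.16, adjusted p 2.94e-06).

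The paralogous exon of CYTH2 moved the other way. Its PSI was lowest 55.0%, median 57.4% and highest 60.4% in RBM25 libraries, 70.5%, 68.2%, 68.3% and 66.9% in RBFOX1N libraries, and 49% and 45% in dCasRx libraries. The 3 effectors did not overlap. Inclusion rose by 10.6 points with RBM25 (SE 2.13, adjusted p 0.0118) and by 21.5 points with RBFOX1N (SE 2.13, adjusted p 2.38e-05) relative to dCasRx, and was lower with RBM25 than with RBFOX1N by a difference of -10.9 points (SE 1.05, adjusted p 9.56e-05). The RBM25 call was lost when either dCasRx library was left out. Cytohesin paralogs that share the letters of the exon thus had opposite differences between RBFOX1N and dCasRx.

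CLASP2 encodes a protein that binds growing microtubule ends. Its 3-nt exon, which GENCODE 29 does not hold, had a PSI of 79.2% to 93.5% (median 87.3%) in RBM25 libraries, 64.1%, 68.4%, 58.1% and 72.7% in RBFOX1N libraries, and 86.5% and 82.3% in dCasRx libraries. RBM25 exceeded RBFOX1N by 21.5 points (SE 3.76, adjusted p 0.000221). Against dCasRx the RBFOX1N difference was -18.6 points with an adjusted p of 0.0667, which missed the threshold although the libraries did not overlap.

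AP2M1 encodes the cargo-binding mu subunit of the AP-2 clathrin adaptor, and its 6-nt exon is a microexon known from neurons. The gene is not in the list of genes with neuronal microexons used below. PSI was 46.4% to 56.9% (median 51.5%) in RBM25 libraries, 40.5%, 40.5%, 48.4% and 34.1% in RBFOX1N libraries, and 56.2% and 48.8% in dCasRx libraries, so RBM25 and RBFOX1N overlapped. The difference of 10.4 points between RBM25 and RBFOX1N (SE 3.33, adjusted p 0.0127) just passed the size threshold and was lost on leaving out single libraries. MAP4K4, a stress-activated kinase, had a 9-nt exon at 63.4% to 74.4% in RBM25 libraries (median 66.8%), 60.1%, 57.3%, 53.3% and 56.8% in RBFOX1N libraries, and 65.5% and 64.3% in dCasRx libraries. RBM25 was higher than RBFOX1N by 11.4 points (SE 2.43, adjusted p 0.00331). RUNDC1, with an unannotated 6-nt exon, had 42.7% to 51.1% in RBM25 libraries (median 44.3%), 45.2%, 33.6%, 36.1% and 28.3% in RBFOX1N libraries, and 26.8% and 30.3% in dCasRx libraries. Only the RBM25 rise of 17.1 points over dCasRx was called (SE 2.20, adjusted p 0.0368), and it was lost without either dCasRx library or without RBM25_NT replicate 1.

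In PTPRS, SUMO2 and SUB1 the exon was close to 0 except with RBFOX1N. The 9-nt exon of PTPRS, a receptor tyrosine phosphatase of axon growth and synapses, had PSI values of 11.2%, 21.0%, 15.3% and 15.8% in RBFOX1N libraries and 0 in every RBM25 and dCasRx library. The 95% Wilson intervals of the RBFOX1N values ran from 6.90% to 29.2%. A count of 0 allows up to 1.41% to 2.08% in single RBM25 libraries, and up to 2.21% and 4.05% in the dCasRx libraries. The differences were 15.8 points for RBFOX1N over dCasRx (SE 2.01, adjusted p 0.000189) and -15.8 points for RBM25 against RBFOX1N (adjusted p 7.05e-08). A second tested exon of PTPRS, of 12 nt, had means of 41.6%, 44.3% and 40.7% with RBM25, RBFOX1N and dCasRx and was not called.

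SUMO2 encodes a ubiquitin-like protein modifier. An unannotated 12-nt exon assigned to it had 1.83% in RBM25_NT replicate 2 and 0 in the other RBM25 libraries, 18.2%, 22.2%, 15.6% and 11.5% in RBFOX1N libraries, and 0 in both dCasRx libraries. The rise with RBFOX1N over dCasRx was 16.9 points (SE 2.26, adjusted p 0.000409). SUB1 encodes a transcriptional coactivator, and its 10-nt exon lies in the UTR. PSI there was 0.191% to 0.403% (median 0.222%) in RBM25 libraries, 12.7%, 10.1%, 10.6% and 8.82% in RBFOX1N libraries, and 0.170% and 0.505% in dCasRx libraries, a rise of 10.2 points over dCasRx (SE 0.818, adjusted p 0.000712). Leaving out RBFOX1N_NT replicate 1 took this SUB1 difference to 9.48 points, under the size threshold, with an adjusted p of 0.00162.

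PTPRS, SUMO2 and SUB1 had few or no inclusion reads outside the RBFOX1N libraries, so they met the minimum of 24 reads of the less used form through the group where they were high. Their direction was thus fixed by admission, and the counts of exons higher with RBFOX1N take them in. Their calls held when that minimum was dropped, but an exon then still needed reads of both forms. PTPRS had inclusion reads in RBFOX1N libraries only, so it was still admitted through them. Exons with smaller values of this kind, admitted in the same way and given here as values only, were found in NUMB, SLC4A2, PTPRF and MADD. In NUMB, a regulator of Notch signalling and endocytosis, an unannotated 3-nt exon was at 0 in RBM25 libraries, 4.35%, 4.27%, 5.17% and 4.01% in RBFOX1N libraries, and 0 in dCasRx libraries. SLC4A2, an anion exchanger, had a 10-nt exon at 0 in RBM25 libraries, 3.69%, 2.7%, 2.84% and 2.24% in RBFOX1N libraries, and 0 in dCasRx libraries. The 27-nt exon of PTPRF, a phosphatase related to PTPRS, averaged 0.440%, 3.08% and 0.319% with RBM25, RBFOX1N and dCasRx. MADD, a Rab exchange factor, averaged 0.196%, 3.67% and 0 for a 3-nt exon in the same order.

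With RBM25 against dCasRx, the 4 lower exons were in UCHL1, SUPT5H, DDX11 and SGSM2. SUPT5H encodes a subunit of the transcription elongation factor DSIF, and its 12-nt exon differed from dCasRx in opposite directions with the 2 fusions. PSI was 67.5% to 72.0% (median 70.2%) in RBM25 libraries, 93.6%, 93.9%, 95.1% and 92.7% in RBFOX1N libraries, and 84.1% and 83.2% in dCasRx libraries, with no overlap among effectors. It fell by 13.8 points with RBM25 (SE 0.804, adjusted p 0.000228) and rose by 10.2 points with RBFOX1N (SE 0.650, adjusted p 0.000327), each against dCasRx. The direct difference of RBM25 from RBFOX1N was -24.0 points (SE 0.847, adjusted p 8.55e-10). The rise with RBFOX1N lies close to the 10-point threshold, and the call was lost without dCasRx_NT replicate 2 or RBFOX1N_MAPT replicate 1.

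UCHL1 encodes a deubiquitinase abundant in neurons. Its 11-nt exon, which has other ends in GENCODE 29, had 75.4% to 81.3% in RBM25 libraries (median 77.9%), 92.0%, 90.4%, 93.4% and 95.1% in RBFOX1N libraries, and 93.5% and 95.4% in dCasRx libraries. RBM25 libraries were below the rest, by 16.2 points against dCasRx (a difference of -16.2, SE 1.29, adjusted p 0.000612) and with a difference of -14.4 points against RBFOX1N (adjusted p 2.06e-05). The 25-nt event that the table assigns to DDX11, a DNA helicase, averaged 60.9 ± 2.38% with RBM25 and 68.4 ± 2.23% with RBFOX1N (SD over 6 and 4 libraries), against 76.4% and 76.8% in the dCasRx libraries. Its coordinates, chr12:9288202-9288226 on hg38, lie in an unprocessed pseudogene of GENCODE 29 and outside the annotated DDX11, so reads of near-identical copies may be shared. SGSM2, a small GTPase regulator, averaged 80.5 ± 3.49% with RBM25, 86.2 ± 4.11% with RBFOX1N for a 23-nt exon, against 94.2% and 91.5% in the dCasRx libraries. Its adjusted p of 0.0481 passed narrowly, and leaving out most single libraries lost the call.

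The 7 exons higher with RBM25 than with dCasRx were in CYTH2, RUNDC1, BICD1, FDXR, ERMARD, RPL41 and MAX. MAX is the partner through which MYC binds DNA, and its 27-nt exon lies in the coding sequence. PSI was 39.2% to 45.3% (median 43.6%) in RBM25 libraries, 52.8%, 53.0%, 53.6% and 51.7% in RBFOX1N libraries, and 32.1% and 31.2% in dCasRx libraries. The effectors did not overlap. Inclusion rose with both, by 11.2 points with RBM25 (SE 1.07, adjusted p 0.00465) and by 21.1 points with RBFOX1N (SE 0.604, adjusted p 2.49e-05) relative to dCasRx, and the direct difference of -9.91 points between RBM25 and RBFOX1N fell short of the size threshold (adjusted p 0.000521).

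BICD1 encodes an adaptor that links dynein to cargo. Its 12-nt exon had the largest difference of this comparison, with 35.5% to 68.6% in RBM25 libraries (median 47.0%), 41.2%, 13.1%, 19.8% and 18.8% in RBFOX1N libraries, and 12.7% and 7% in dCasRx libraries. The rise of 38.8 points over dCasRx (SE 5.64, adjusted p 0.00826) rests on 24 to 68 reads per library, and the dCasRx values on 3 inclusion reads each. Reads over its 2 junctions were marked as unbalanced, and the call was lost without dCasRx_NT replicate 2. RPL41, a ribosomal protein, averaged 67.9 ± 4.43% with RBM25 and 60.5 ± 1.82% with RBFOX1N for a 23-nt exon, against 52.6% and 45.4% in the dCasRx libraries, from 550 reads or more per library; it is a gene with many near-identical copies. FDXR, which passes electrons to mitochondrial cytochromes, averaged 62.9 ± 5.69% with RBM25 and 57.5 ± 2.53% with RBFOX1N, against 26.5% and 48.9% in the dCasRx libraries. ERMARD averaged 88.7 ± 2.60% with RBM25 and 87.7 ± 3.28% with RBFOX1N, against 76.4% and 72.5% in the dCasRx libraries. CYTH2, MAX, FDXR, ERMARD, RPL41 and SUPT5H, 6 exons, were called for both RBM25 and RBFOX1N against dCasRx, which is 54.5% of the RBM25 calls and 26.1% of the RBFOX1N calls. They share the dCasRx libraries, and the differences have the same sign in all of them but SUPT5H.

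The 5 exons lower with RBFOX1N than with dCasRx were in FLNA, CYTH1, PPP1R35, PRR14 and C1orf35. FLNA encodes filamin A, which crosslinks actin, and its 24-nt exon adds residues within a coding stretch. PSI was 65.7% to 70.4% (median 69.2%) in RBM25 libraries, 44.5%, 44.6%, 40.6% and 44.5% in RBFOX1N libraries, and 71.4% and 67.9% in dCasRx libraries. RBFOX1N libraries stood below the rest without overlap, and RBM25 overlapped dCasRx. FLNA inclusion fell by 26.1 points with RBFOX1N (SE 2.02, adjusted p 5.87e-07) and RBM25 exceeded RBFOX1N by 24.9 points (SE 1.30, adjusted p 5.12e-10), from 583 to 1391 reads per library. FLNA expression was higher with RBFOX1N than with dCasRx as well, at a log2 fold change of 0.79 (edgeR adjusted p 3.00e-05). PRR14 averaged 76.1 ± 1.73% with RBM25 and 51.2 ± 3.40% with RBFOX1N for a 10-nt exon, against 61.4% and 72.9% in the dCasRx libraries. C1orf35 averaged 93.1 ± 1.03% with RBM25 and 79.7 ± 4.02% with RBFOX1N for a 12-nt exon, against 94.2% and 93.1% in the dCasRx libraries. The 21-nt exon of PPP1R35, a centriole protein, averaged 38.8 ± 6.88% with RBM25 and 28.8 ± 3.30% with RBFOX1N, against 45.6% and 47.5% in the dCasRx libraries, and overlaps an antisense gene.

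Among the 18 exons higher with RBFOX1N than with dCasRx, the largest differences were in OS9 (37.2 points) and SLC25A51 (28.4 points). OS9 encodes a lectin of endoplasmic reticulum quality control, and its 15-nt exon had 33.4% to 54.6% in RBM25 libraries (median 41.4%), 58.8%, 66.8%, 59.6% and 74.1% in RBFOX1N libraries, and 34.2% and 21.1% in dCasRx libraries. It rests on 22 to 60 reads per library, overlaps an antisense gene, and its adjusted p of 0.0111 did not hold without dCasRx_NT replicate 2. SLC25A51, the mitochondrial NAD carrier, had a 27-nt exon at 15.1% to 31.9% in RBM25 libraries (median 23.4%), 49.8%, 50.3%, 57.7% and 43.9% in RBFOX1N libraries, and 27.7% and 16.3% in dCasRx libraries. RBFOX1N libraries lay above the others, with a direct difference of -26.8 points for RBM25 against RBFOX1N (SE 3.59, adjusted p 0.000302).

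DNM2 encodes the dynamin that pinches off endocytic vesicles. Its 12-nt exon had 33.1% to 43.1% in RBM25 libraries (median 38.8%), 51.3%, 58.1%, 60.6% and 56.8% in RBFOX1N libraries, and 22.1% and 44.5% in dCasRx libraries. The dCasRx libraries lay far apart, with an SD of 15.9 points, and the rise of 23.4 points with RBFOX1N over dCasRx has a standard error of 11.4 (adjusted p 0.0156); the direct difference of -18.1 points for RBM25 against RBFOX1N is better determined (SE 2.37, adjusted p 0.00298). TEAD2, a transcription factor of the Hippo pathway, averaged 21.1 ± 2.26% with RBM25 and 35.0 ± 6.69% with RBFOX1N for a 12-nt exon, against 12.5% and 18.3% in the dCasRx libraries. RAD54L, of homologous recombination, averaged 80.8 ± 4.8% and 89.0 ± 2.51% for a 10-nt exon, against 75% and 69.7% in the dCasRx libraries. SNX14, a sorting nexin, had 41.0 ± 4.78% with RBM25 and 51.8 ± 1.92% with RBFOX1N for a 27-nt exon, against 37.1% and 33.7% in the dCasRx libraries. The remaining calls were in PTGES3, the p23 cochaperone of HSP90, MAPK1IP1L and MROH1. PTGES3 averaged 91.1% with RBM25 and 94.7% with RBFOX1N, against 69.8% and 80.2% in the dCasRx libraries. MAPK1IP1L averaged 86.5% and 88.4%, against 79.5% and 76% in the dCasRx libraries, and MROH1 10.3% and 21.4%, against 1.98% and 0.

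The direct comparison of RBM25 with RBFOX1N does not use the dCasRx libraries as its baseline. Among the 22 exons lower with RBM25 that were called in neither comparison with dCasRx were those of INCENP, a subunit of the chromosomal passenger complex (10.8 ± 2.80% with RBM25, 27 ± 5.66% with RBFOX1N, 12.1 ± 8.35% with dCasRx), and SH3GLB2, an endophilin (78.2 ± 3.95%, 92.5 ± 1.21%, 84.1 ± 1.55%). TADA2A, a subunit of histone acetyltransferase complexes, had 7.64 ± 4.18%, 27.8 ± 9.42% and 13.1 ± 8.34% in the same order. The other such exons were in SQSTM1, GBF1, DGCR14 (named ESS2 in GENCODE 29), TAF1D, CACNA1H, AFDN, ITGA2B and ROBO1, with differences between -10.7 and -21.8 points. ROBO1, the Slit receptor of axon guidance, averaged 57.7 ± 3.53% with RBM25 and 70.8 ± 2.57% with RBFOX1N for its 27-nt exon, while the dCasRx libraries were at 76.2% and 50.1%.

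The 15 exons higher with RBM25 than with RBFOX1N included those of UGGT1, the folding sensor of glycoproteins (87.8 ± 5.54% with RBM25, 66.8 ± 5.80% with RBFOX1N and 88.6 ± 6.95% with dCasRx), and MED23, a Mediator subunit (22.6 ± 5.05%, 7.79 ± 1.56% and 11 ± 0.464%). C5orf24, PAQR6, AGRN, DIAPH1 and TRAPPC13 had differences between 11.1 and 15.2 points. AGRN encodes agrin of the neuromuscular junction, DIAPH1 a formin that elongates actin filaments, and TRAPPC13 a subunit of the TRAPP vesicle-tethering complexes. In 29 of the 37 called exons RBM25 and RBFOX1N libraries did not overlap, which was also the case in 79 of the 453 tested (17.4%); the overlapping calls were in TRAPPC13, AFDN, DGCR14, GBF1, DIAPH1, BICD1, PAQR6 and AP2M1. None of the 11 and 23 calls against dCasRx overlapped, beside 94 (20.8%) and 171 (37.7%) of those tested.

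Some calls rest on single libraries. Leaving out each library in turn lost at least once 7 of the 11 calls of RBM25 against dCasRx, 16 of 23 of RBFOX1N against dCasRx and 16 of 37 of RBM25 against RBFOX1N, and no called difference changed sign. For RBM25 against dCasRx, 5 were lost without dCasRx_NT replicate 1 (CYTH2, ERMARD, FDXR, RUNDC1 and SGSM2) and 6 without replicate 2 (BICD1, CYTH2, ERMARD, MAX, RUNDC1 and SGSM2). For RBFOX1N against dCasRx, 9 were lost without dCasRx_NT replicate 1 (DNM2, ERMARD, FDXR, MROH1, PPP1R35, PTGES3, SLC25A51, SNX14 and TEAD2) and 12 without replicate 2 (ERMARD, MAPK1IP1L, MROH1, OS9, PPP1R35, PRR14, PTGES3, RAD54L, RPL41, SLC25A51, SNX14 and SUPT5H). For RBM25 against RBFOX1N the calls lost at least once were in AFDN, AGRN, AP2M1, BICD1, CACNA1H, DIAPH1, GBF1, ITGA2B, OS9, PAQR6, ROBO1, SNX14, SQSTM1, SUB1, TAF1D and TRAPPC13. Calls that held under each alternative that could include them were SUPT5H, UCHL1 and DDX11 for RBM25 against dCasRx, and C1orf35, CYTH1, CYTH2, FLNA, MAX, PTPRS and SUMO2 for RBFOX1N against dCasRx. For RBM25 against RBFOX1N they were CLASP2, CYTH1, CYTH2, FLNA, PRR14, PTPRS, SH3GLB2, SUMO2, SUPT5H, TADA2A, TEAD2 and UCHL1. PTPRS and SUMO2 had been admitted to the main tests through the RBFOX1N libraries, as described above. DDX11, C1orf35, TADA2A and TEAD2 were not among the exons of the alternative that leaves out unbalanced junctions. The authors' table marks reads over the 2 junctions as unbalanced for 20 of the 49 called exons and 178 of the 453 tested. The exons of PTPRS, SUMO2 and SUB1, quantified by the separate microexon step, carry no such mark. Whether exons of that step are scored for balance was not checked.

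Some hosts have further tested microexons. In the 26 genes with 2 or more tested microexons, 52 exons in all, 9 genes had 1 call and none had more, beside 49 of 453 exons (10.8%) called over all genes. DIAPH1 had a further exon of 9 nt at 99%, 98.9% and 98.7% with RBM25, RBFOX1N and dCasRx beside its called 27-nt exon. CLASP2 had a 27-nt exon at 1.41%, 3.36% and 2.74% beside its called 3-nt exon. UCHL1 had a 12-nt exon at 94.9%, 92.1% and 97.3%. A further 64 microexons had an adjusted p under 0.05 in an effector comparison with a difference under 10 points. They include the 21-nt exon of CLTC, the clathrin heavy chain (6.62%, 2.81% and 5.83% with RBM25, RBFOX1N and dCasRx), and the 9-nt exon of MTSS1L, an actin and membrane regulator (18.9 ± 1.49%, 26.2 ± 1.21% and 17.1 ± 1.87%).

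Other microexons of 9 nt or shorter were alternative in this line and passed no test. ABCA2, a lipid transporter, had a 3-nt exon at 22.9 ± 4.64% with RBM25, 28.6 ± 7.75% with RBFOX1N and 24.5 ± 14.3% with dCasRx. The 9-nt exons of AP1G1 and AP1B1, subunits of the AP-1 clathrin adaptor, averaged 37.4%, 32.2% and 35.7%, and 27.9%, 24.9% and 28.3%, with RBM25, RBFOX1N and dCasRx. In KIF3A, a kinesin motor subunit, a 9-nt exon averaged 42.7 ± 15.6%, 44.9 ± 31.7% and 20.1 ± 28.4%, so its libraries spread too widely for a difference of this size to be seen. SEPT7, a septin, had an unannotated 5-nt exon at 84.9 ± 1.42%, 83.0 ± 1.22% and 87.0 ± 0.296%.

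Genes known for neuronal microexons were taken from a list of 75. Of these, 48 hold 97 of the microexons, 82 of which have a length that is a multiple of 3. Mean PSI was below 1% in 62 of the 97, between 10% and 90% in 13 and above 90% in 4. The 29 that could be tested, 27 of them multiples of 3, gave no call for RBM25 against dCasRx, 2 higher for RBFOX1N against dCasRx (DNM2 and PTPRS), and 3 higher and 3 lower for RBM25 against RBFOX1N (CLASP2, AGRN and TRAPPC13 higher; DNM2, PTPRS and ROBO1 lower). Over all 453 tested microexons, 2.43%, 5.08% and 8.17% were called in these comparisons. The list's median differences in the 3 comparisons were 0.399, 2.11 and -1.94 points, beside 0.305, 0.673 and -0.119 over all 453. The RBFOX1N mean was above the dCasRx mean in 24 of 29, beside 280 of 453 (61.8%), and above the RBM25 mean in 21 of 29, beside 237 of 453 (52.3%). Of the tested exons averaging under 1% with the 2 other effectors, 15 of 48 reached 1% with RBFOX1N, 5 of 38 with RBM25 and 1 of 34 with dCasRx. These effectors have 4, 6 and 2 libraries to reach the read minimum, so the shares are not comparable. Exons that reached 1% in this way, PTPRS among them, met the read minimum through the group where they were high, so their direction was fixed by admission. The counts of direction and the medians take them in and are not read as a trait of the list. Several genes hold more than 1 of the 29, and no test was made of the list.

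In CLASP1, the paralog of CLASP2 and likewise a microtubule-end protein, the 24-nt exon printed above had 27.5% to 49.6% in RBM25 libraries, 50.1%, 53.1%, 63.0% and 48.3% in RBFOX1N libraries, and 26% and 41.1% in dCasRx libraries. The adjusted p was 0.149 for RBFOX1N against dCasRx and 0.0779 for RBM25 against RBFOX1N, so neither was called. Its 27-nt exon averaged 7.04%, 13.5% and 0.821% with RBM25, RBFOX1N and dCasRx (adjusted p 0.0541 for RBFOX1N against dCasRx). The 18-nt exon of SPTAN1, a spectrin of the membrane skeleton, was at 87.4 ± 2.27%, 93.9 ± 1.07% and 90.9 ± 0.912%, with an adjusted p of 0.000735 for RBM25 against RBFOX1N and a difference below 10 points. MON2, of Golgi and endosome traffic, averaged 60.6 ± 4.61%, 62.5 ± 8.79% and 45.5 ± 1.16% and was not called. Exons at the upper end were the 3-nt exon of CLASP1 (98.6%), the 24-nt exon of SPTAN1 (99.9%) and the 9-nt exon of ROBO1 (over 99.9%), while the 24-nt exon of the transcription factor MEF2C was at 1.01% over all libraries.

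Other lists are read beside the 49 of 453 tested microexons (10.8%) called in at least 1 comparison. Of 103 genes of the cytoskeleton and small GTPases, 65 hold 108 microexons. All 27 of these that were tested have a length that is a multiple of 3, and 4 were called in at least 1 comparison (FLNA, AFDN, DIAPH1 and CLASP2). Of 85 genes of endocytosis and traffic, 43 hold 62, of which 25 were tested and 4 called (TRAPPC13, SNX14, DNM2 and AP2M1). Chromatin and transcription genes gave 6 tested exons and no call, and RNA and translation genes gave 5 tested and 1 call (RPL41). Genes of the microexon regulators themselves gave 2 tested and no call.

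No guide changed a microexon past the threshold. The MAPT and CD46 guides with RBM25, which share the RBM25_NT libraries as their baseline, and the MAPT guide with RBFOX1N each called 0 of 453 against the nontargeting guide, beside 0.000996%, 0.0% and 0.0% of all events. The quasi-binomial test had 27, 27 and 24 microexons at an unadjusted p under 0.05 and limma on logit values had 20, 23 and 16, with 0 called. The smallest adjusted p values were 0.696, 0.571 and 0.682. Differences of 10 points or more were found in 13, 14 and 16 of the 453 (2.87%, 3.09% and 3.53%), compared with 34, 66 and 47 (7.51%, 14.6% and 10.4%) in the 3 effector comparisons; the pooled RBM25 and RBFOX1N groups hold 6 and 4 libraries, and each guide group and dCasRx_NT hold 2. The interaction of the MAPT guide with the effector called none of 453, with 18 at an unadjusted p under 0.05 and a smallest adjusted p of 0.741.

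The largest guide differences had adjusted p values far from the threshold, whatever their standard error. PRKD1, a protein kinase, had a 24-nt exon at 63.2% and 51.8% with RBM25_MAPT against 23.3% and 39.0% with RBM25_NT, a difference of 26.3 points (SE 9.72, adjusted p 0.791). With RBM25_CD46 it was at 58.6% and 56.5%, a difference of 26.4 points from the same RBM25_NT libraries (SE 7.94, adjusted p 0.746). SLCO4A1, an organic anion transporter, had a 27-nt exon at 63.2% and 66.5% with RBM25_MAPT, against 40.2% and 37.4% with RBM25_NT, a difference of 26 points with a narrow standard error of 2.17 (adjusted p 0.722, at least 23 reads per library). With RBM25_CD46 it was at 49.8% and 60.4% (SE of the difference 5.52, adjusted p 0.889). DMTN, which bundles actin, had a 5-nt exon at 26.5% and 23.1% with RBFOX1N_MAPT against 0 and 0 with RBFOX1N_NT, a difference of 24.8 points (SE 1.70, adjusted p 0.730, at least 21 reads per library). KIF3A had 62.8% and 71.1% with RBFOX1N_MAPT against 0 and 45.8% with RBFOX1N_NT, a difference of 44.0 points (SE 23.3, adjusted p 0.769). The other exons among the 5 largest were in PHACTR4, GBF1 and RP11-159D12.5 (MAPT guide with RBM25), URGCP, CACNA1H and FLOT1 (CD46 guide), and COL25A1, TNIK and ELMOD1 (MAPT guide with RBFOX1N), with differences from -22.7 to 18.9 points and adjusted p of 0.784 or more.

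Levels of the host genes did not single out the microexon genes. By edgeR, 66 of 419 tested hosts changed between RBM25 and dCasRx (15.8%, beside 18.5% of all 20593 genes), 96 between RBFOX1N and dCasRx (22.9%, beside 23.4%), and 183 between RBM25 and RBFOX1N (43.7%, beside 41.6%). Without dCasRx_NT replicate 2 the first 2 counts were 20 and 31, and without RBM25_MAPT replicate 2 the first was 100. Among hosts of called exons, 4 of 11, 4 of 23 and 20 of 37 changed. FDXR was lower with both effectors than with dCasRx (log2 fold change -0.77 for each), and PRR14 was higher with RBFOX1N (0.74). RPL41 was called lower with both as well (-0.48 with RBM25 and -0.47 with RBFOX1N), but its dCasRx replicates 1 and 2 lay at 551 and 952 CPM. Replicate 1 was inside the ranges of RBM25 (449 to 635 CPM) and RBFOX1N (467 to 597 CPM), so the RPL41 difference rests on replicate 2. SUPT5H was higher with RBM25 than with dCasRx (0.32), as was BICD1 (0.28). Whether a host's level bears on its exon's PSI was not tested.

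Of 37 genes known to act on microexons, 34 were expressed enough to test, and 8, 5 and 13 changed in the 3 comparisons (23.5%, 14.7% and 38.2% of those tested, beside 18.5%, 23.4% and 41.6% of all genes). The counts of 8 and 13 include RBM25, whose reads include the effector. Without dCasRx_NT replicate 2 the first 2 counts were 3 and 2, without replicate 1 the second was 9, and without RBM25_MAPT replicate 2 the first was 13. SRRM4, the neuronal activator, had 0 to 8 counts per library, and ESRP1 0 to 12. SRRM3 averaged 8.94 CPM with RBM25, 10.0 CPM with RBFOX1N and 17.9 CPM with dCasRx, and was lower with RBM25 (log2 fold change -1.0, SE 0.135, edgeR adjusted p 7.80e-05) and with RBFOX1N (log2 fold change -0.84, SE 0.146, edgeR adjusted p 0.000648) than with dCasRx. RBFOX2 had the highest gene counts of the RBFOX genes, in which the RBFOX1N effector does not show. RBFOX2 averaged 190 CPM with RBM25, 156 CPM with RBFOX1N and 157 CPM with dCasRx. It was higher with RBM25 than with dCasRx by a log2 fold change of 0.27 (edgeR adjusted p 0.0128). PTBP1 averaged 819, 862 and 763 CPM in the same order and passed no test (edgeR adjusted p 0.361 and 0.114 for RBM25 and RBFOX1N against dCasRx). SRRM2, a spliceosome protein, was higher with both effectors than with dCasRx (log2 fold changes 0.41 and 0.45), as was RNPS1 (0.26 and 0.34). In dCasRx_NT replicates 1 and 2, SRRM2 was at 1133 and 810 CPM and RNPS1 at 497 and 416 CPM. The lowest RBM25 and RBFOX1N libraries were both at 1194 CPM for SRRM2, and at 529 and 528 CPM for RNPS1. Replicate 1 thus lay close to them, and most of the gap was in replicate 2. NOVA1, a neuronal splicing factor, averaged 11.7, 17.3 and 12.8 CPM with RBM25, RBFOX1N and dCasRx, and SRSF1, an SR protein, was higher with RBM25 than with RBFOX1N by a log2 fold change of 0.56. NOVA1 was called higher with RBFOX1N than with either other effector. HNRNPA1 (0.22), MBNL2 (0.29) and CELF1 (0.18) were called higher with RBM25 than with dCasRx, and SF1 (0.34) with RBFOX1N. HNRNPA1, SNRNP70, U2AF2, SRSF11, ELAVL1, RBFOX2, MBNL2 and NOVA2 were called higher with RBM25 than with RBFOX1N. SF1 and ESRP2 were called lower. The part of the regulators that changed in the microexon differences was not tested.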

How the data were processed

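Splicing and expression were measured in the same 12 poly(A) libraries, which the labels' protocols describe as made from 500 ng of total RNA by a directional kit and read as pairs of 150 nt. The authors deposited a splicing table with the percent spliced in per library and, beside each percent, quality scores and corrected inclusion and exclusion reads. Its layout is that of vast-tools, with a version not given in the sources used here. That percent, as deposited, lay within 0.05 points of the one computed from those reads in 100% of 4067640 values. The authors also deposited whole-number read counts per gene, not normalized, for 62710 genes. The submitters' processing notes name STAR 2.7.10, edgeR and hg38 but no role for them, and whether counting used strand is not stated there. Libraries were grouped by title, and the 36 columns used were matched by name.

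Events with 20 reads or more in every library, and 24 or more of the less used form in total, were fitted with a quasi-binomial logistic model (Python 3.11.15, numpy 2.4.6, scipy 1.17.1, pandas 2.3.3). The dispersion was moderated across events and floored at 1. Effector comparisons came from a fit of 3 effector means (9 residual degrees of freedom, prior 8.31), and guide comparisons from a fit of 6 group means (6 residual, prior 9.91). Guide differences therefore count as spread in the effector comparisons. Guides were not matched over effectors, so a guide difference also enters an effector's mean. In the pooled comparisons it cannot be told apart from the effector. Differences are of mean percent spliced in, with standard errors from the libraries. Gene counts were tested by edgeR 4.0.16 under R 4.3.3 (TMM, filterByExpr, glmQLFit and glmQLFTest) over 20593 genes, called at an adjusted p under 0.05, with CPM from TMM-scaled library sizes. Of 427 host symbols, 421 matched the gene table and 419 were tested. Both pipelines were tested on simulated data with 200 changed events or genes. Wilson intervals are at 95%, and a limit at a count of 0 is 3 reads of the total; both take in counting error alone, because reads lack molecular identifiers and do not stand for separate molecules.

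Exons were placed on GENCODE 29. The microexons and gene lists were chosen with earlier results of these data known. Exons named are those called in any comparison, the 5 largest differences where fewer than 5 were called, exons of 9 nt or shorter (given as counts, since there are 852, with examples) and those in genes of the neuronal list, also largely as counts. Among genes, the regulators that edgeR called were named, and levels of called hosts were given for examples only. Further examples, such as CLTC and the exons below 1% in all but RBFOX1N libraries, were chosen after their values were seen. Alternatives were limma 3.58.1 on logit values, other read minimums and sizes, the nontargeting guide only, a replicate block, DESeq2 1.42.0 and other scalings of counts, and leaving out each library. Sequence from chromosome 8 and introns was not used here.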

Additional observations from a re-analysis of the deposited data

Results flagged for a closer look

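In 98 sets of libraries of 1 effector, for the 49 called exons, 8 held a library whose gap to the nearest other exceeded the 95% critical value of Dixon's test; chance alone gives about 5% of sets. In SUB1, RBM25_NT replicate 2 was at 0.403%, and the other RBM25 libraries at 0.191% to 0.251%. In SUMO2, the same library was at 1.83% and the other RBM25 libraries at 0. MAPK1IP1L was at 84.1% in that library, below the 86.4% to 87.6% of the others. DGCR14 was at 85.0% in RBM25_NT replicate 1, above the 65.3% to 70.0% of the other RBM25 libraries and inside the RBFOX1N range. C1orf35 was at 95.03% in RBM25_MAPT replicate 1, and the others at 91.9% to 93.0%. The remaining 3 were in RBFOX1N_MAPT replicate 1: INCENP at 35.5% (others 23.5% to 24.98%), FLNA at 40.6% (others 44.5% to 44.6%) and UGGT1 at 58.2% (others 68.5% to 70.5%). No cause was tested.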

How the results depend on the processing

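No called microexon difference changed sign under the alternatives run; over the 3 effector comparisons, the calls held in 136 of 169, 241 of 307 and 544 of 643 refits for RBM25 against dCasRx, RBFOX1N against dCasRx and RBM25 against RBFOX1N. From 11, 23 and 37 calls, limma gave 6, 16 and 24, leaving out exons with unbalanced junctions gave 6, 13 and 25, and the nontargeting guide only, with fewer libraries, gave 6, 18 and 16. Counts under an alternative can include exons not called in the main fit. With the nontargeting guide only, 6, 16 and 13 of the main calls were kept. A size of 5 points gave 16, 31 and 62, no minimum of the less used form 8, 16 and 29, at least 50 reads 9, 18 and 25, and an event's own spread where larger, chosen after seeing the data, 9, 19 and 33. Leaving out 1 library gave 6 to 12, 11 to 20 and 29 to 41 calls, and 0 to 0 for each guide comparison; the lowest for both dCasRx comparisons came without dCasRx_NT replicate 2. Host genes ranged from 20 to 100, 31 to 101 and 144 to 198, and regulators from 3 to 13, 2 to 9 and 12 to 14. With the nontargeting guide only, hosts called were 26, 45 and 60 and regulators 2, 1 and 3. DESeq2 gave 74, 102 and 189 hosts. The guide comparisons called 0 under all alternatives. Causes of these shifts were not tested. Deviations of same-numbered replicates had correlations of -0.0979 to 0.166 in expression. The pairs among RBM25 groups had weak positive values (0.166, 0.105 and 0.0996), so some sharing by number there is not excluded. The main fits did not pair libraries by number. With the replicate block, 10, 24 and 36 microexons, 80, 108 and 192 hosts and 12, 6 and 13 regulators were called. Exons with under 50 reads, and the 2 dCasRx libraries, limit what could be seen.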
